A study of Mus musculus with 2 samples.

Results

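Ppargc1a encodes PGC-1alpha, the coactivator best known for driving the production of mitochondria, and it was analysed here with 9 further regulators of mitochondrial biogenesis in a mouse glioblastoma stem cell line after suppression of Gli2. The 10 genes were chosen by name and by role: the PGC-1 coactivators Ppargc1a, Ppargc1b and Pprc1, their partner transcription factors Nrf1, Gabpa and Esrra, and the genes of mitochondrial DNA maintenance and transcription Tfam, Tfb1m, Tfb2m and Polg. They are 10 of the 23784 genes that could be named on the array, and they were covered by 23 probes, matched through RefSeq accessions. The set was proposed with earlier results of these data in view, in which Ppargc1a stood among the genes with the lowest differences, so its values are given as a description and no test is drawn from them.

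Mouse glioblastoma stem cells stably transduced with a lentivirus carrying a Gli2 shRNA were set against cells of the same line with a lentiviral non-target shRNA (control). This line was derived from glioblastomas induced de novo in mice with an SB transposon, and both groups grew as neurospheres in serum-free neural stem cell medium with EGF and bFGF. Total RNA was labelled with Cy3 and hybridised to 1-colour Agilent arrays, 1 array per group. The comparison rests on 1 cell line with no replicate, so no p-value can be given for any difference, and the spread between cultures is unknown. In bulk RNA of this kind, fewer cells of a type and less RNA per cell cannot be told apart.

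PGC-1 coactivators do not bind DNA themselves. They are recruited by transcription factors such as NRF1, GABP and the oestrogen-related receptor ERR-alpha (encoded by Nrf1, Gabpa and Esrra), and these factors act on nuclear genes for the respiratory chain and for the proteins that copy and transcribe mitochondrial DNA. In brain, PGC-1alpha is known mainly from neurons, where it is abundant in parvalbumin interneurons, and outside the brain from brown fat and muscle, where cold and exercise induce it through cyclic AMP signalling.

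The promoters of 3 of the genes are shown because they hold short sequences described for the factors measured here. Each is the 250 bases before the RefSeq start in GRCm38.p6, written 5′ to 3′ on the strand of the gene, with the matched letters in capitals.
Ppargc1a (chr5:51567726-51567975, minus strand, ACGTCA, the core of a cAMP response element): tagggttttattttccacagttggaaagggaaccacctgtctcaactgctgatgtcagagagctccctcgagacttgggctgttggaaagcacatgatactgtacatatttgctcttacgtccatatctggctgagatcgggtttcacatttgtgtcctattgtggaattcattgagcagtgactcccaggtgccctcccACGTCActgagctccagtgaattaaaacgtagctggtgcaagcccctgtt
Esrra (chr19:6921809-6922058, minus strand, GCATGCGC, part of the NRF1 palindrome): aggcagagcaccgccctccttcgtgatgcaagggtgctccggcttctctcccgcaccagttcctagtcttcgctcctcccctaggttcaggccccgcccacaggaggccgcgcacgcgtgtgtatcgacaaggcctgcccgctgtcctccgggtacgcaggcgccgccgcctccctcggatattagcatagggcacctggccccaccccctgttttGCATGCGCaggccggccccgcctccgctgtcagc
Tfam (chr10:71238045-71238294, minus strand, CCGGAAG, a GABP site): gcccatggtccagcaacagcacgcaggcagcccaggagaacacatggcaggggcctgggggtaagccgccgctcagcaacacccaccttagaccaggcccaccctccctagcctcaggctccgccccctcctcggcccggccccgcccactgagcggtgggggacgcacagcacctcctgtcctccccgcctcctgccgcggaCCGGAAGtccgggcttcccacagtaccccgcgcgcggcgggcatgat

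Exact letters were searched on both strands in the 250-base windows. The table held windows for 9 of the 10 genes, 10 windows in all, with Nrf1 represented by 2 of them and Ppargc1b by none. ACGTCA lay in the Ppargc1a window alone, 50 to 45 bases before the start, against 6.47% of all 32851 windows. CCGGAAG lay in the windows of Gabpa, Polg and Tfam, against 6.91% of all windows. GCATGCGC lay in the Esrra window alone, 34 to 27 bases before the start, against 2.26% of all windows. AAGGTCA, the letters of an ERR site, and GACCACCCA, the letters of a GLI site, were in none of these 10 windows, against 4.08% and 0.225% of all windows. These are matches of letters and say nothing about binding in these cells, which was not measured.

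Signals below are processed intensities as the scanner software gives them. Differences are on the log2 scale, Gli2 shRNA minus control, after each array was scaled to its 75th percentile (a signal of 399.0 in Gli2 shRNA and 329 in control). The ± value beside a difference is the error that the software models for both spots, which covers the spots and not the cultures. A gene is represented by its brightest probe, and a difference of 2-fold or more is called past 2-fold. Over the 14563 named genes measured on both arrays, 528 were past 2-fold, which is 3.63%, with 260 lower (1.79%) and 268 higher (1.84%). The lower genes made up 49.2% of these calls, against 31.4% with median scaling and 59.9% with normexp background correction. Gli2, the gene targeted by the shRNA, had a signal of 57.9 in Gli2 shRNA and 98.1 in control, a scaled difference of -1.04 ± 0.22. That is 48.7% of control on its brightest probe. The Gli2 difference was at the threshold, since median scaling raised all genes alike by 0.14 and so placed it within 2-fold. Of 11 markers of neural stem cells, 10 were measured on both arrays, with differences from -0.97 to 0.47 and none past 2-fold. Of these 10, 8 lay below 0 and 2 above, with a median of -0.11. The remaining marker was measured on the control array only.

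Ppargc1a had a signal of 79.97 in Gli2 shRNA cells and 325 in control cells on its brighter probe (RefSeq NM_008904, chromosome 5). Both values were well above background, and the Gli2 shRNA value was the low one. The scaled difference was -2.30 ± 0.22, a level 4.93-fold lower, or 20.3% of control. Among the 14563 genes measured on both arrays, 12 had a lower difference. A further 931 genes, measured on the control array only, have no place in this ranking. The other probe of the same transcript gave 17.7 in Gli2 shRNA, where it was not well above background, and 61.6 in control. After scaling, that probe was 4.22-fold lower (-2.08 ± 0.37), a size that is uncertain at so dim a signal. Both Ppargc1a probes thus pointed the same way. With normexp background correction the brighter probe was 3.04-fold lower (-1.60) and the dimmer one 1.72-fold lower (-0.78), so that the dimmer probe was then within 2-fold.

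Of 6 brown fat markers 1 was measured on both arrays and 3 on neither (Adipoq, Fabp4 and Plin1). Cidea was well above background in control alone, and Ucp1 in Gli2 shRNA alone. The summed signal of the 6, before scaling, was 121 in Gli2 shRNA and 132 in control. Of 7 skeletal and heart muscle markers 1 was measured on both arrays and 4 on neither (Ckm, Mb, Myod1 and Tnnt2). Myh2 and Acta1 were well above background in control alone. Their signals were 14.7 and 16.0 in control, and 5.02 and 9.53 in Gli2 shRNA. Both were thus lower too, but signals this dim give no reliable fold. The summed signal of the 7 was 139 in Gli2 shRNA and 225 in control. The muscle marker measured on both arrays, the slow muscle and heart myosin gene Myh7, had 97.7 in Gli2 shRNA and 165 in control. Its difference was -1.04 ± 0.21, at the threshold of 2-fold, since median scaling raised all genes alike by 0.14 and so placed it within 2-fold. It was lower in the same direction as Ppargc1a, and its part in the Ppargc1a difference was not tested. Of 6 markers of parvalbumin interneurons 4 were measured on both arrays, from -0.20 to 0.41. The summed signal, before scaling, was 1875 in Gli2 shRNA and 1602 in control. The Gli2 shRNA array was also brighter at its 75th percentile (399.0 against 329). No measured marker of neurons, astrocytes, oligodendrocytes, microglia or endothelium was past 2-fold, against 3.63% of all genes. Below 0 lay 5 of 5 astrocyte markers (median -0.19) and 3 of 5 oligodendrocyte markers (median -0.35), where 49.7% of all genes did. So did 2 of 2 for microglia and 2 of 2 for endothelium. Of 6 neuron markers, 4 lay above 0 (median 0.08). Their part in the Ppargc1a difference was not tested.

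**Figure D1:**
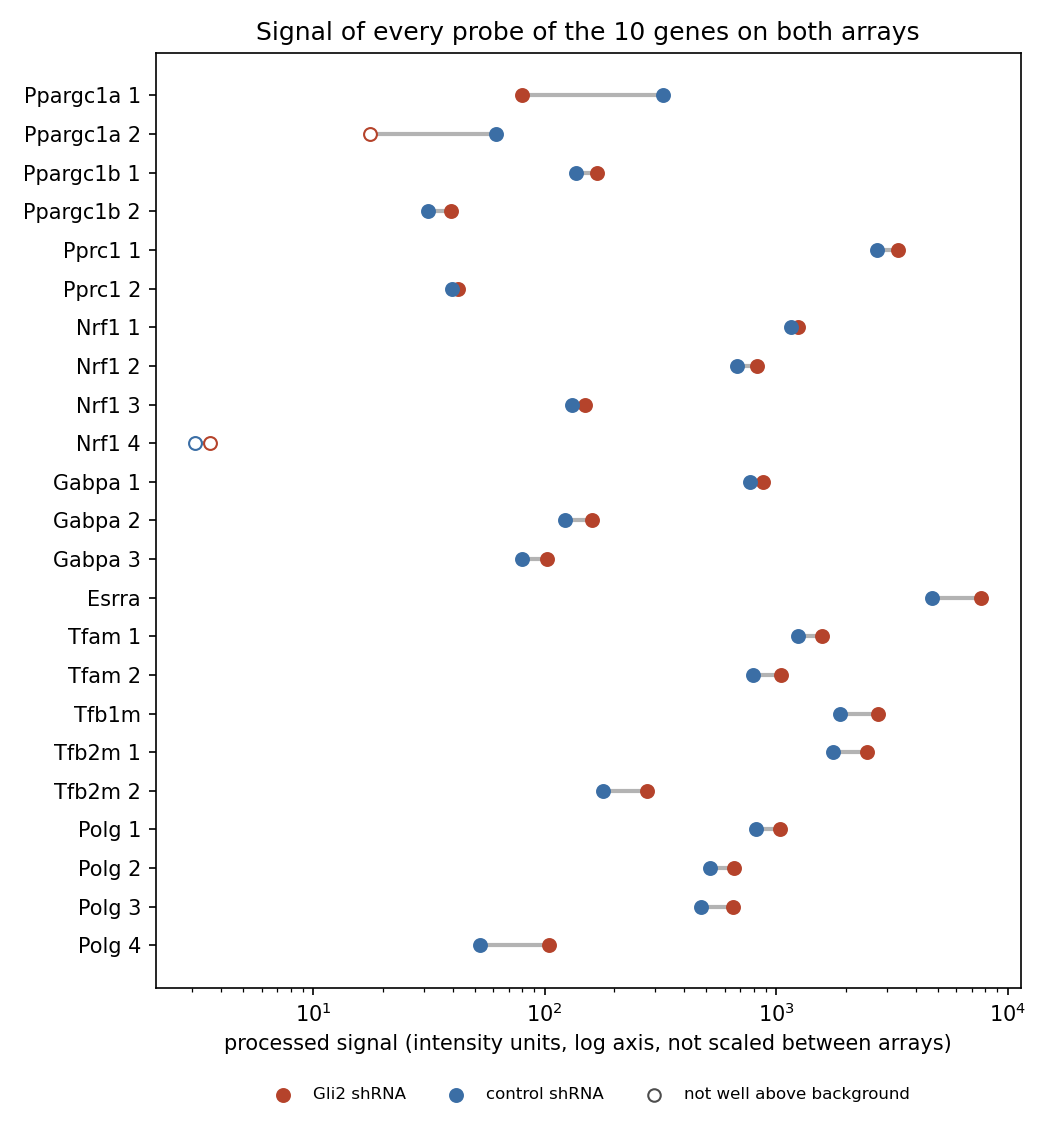
Processed signal of each of the 23 probes of the 10 genes (horizontal axis, intensity units, log axis) in Gli2 shRNA (red) and control shRNA (blue) cells, 1 array each, with open circles for signals not well above background. Numbers after a gene count its probes from the brightest. The Gli2 shRNA point lies left of the control point for both Ppargc1a probes and right of it for the rest, before any scaling between arrays.

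The other PGC-1 coactivators had nearly equal levels in both arrays. Ppargc1b, the family member with the most similar described functions (chromosome 18), had 168 in Gli2 shRNA and 137 in control, a scaled difference of 0.02 ± 0.21, and 0.04 ± 0.27 on its other probe. Pprc1, a coactivator of the family described as responsive to serum and growth (chromosome 19), had 3362 in Gli2 shRNA and 2734 in control, a scaled difference of 0.02 ± 0.20. Its dimmer probe had 42.1 and 39.95 in the same order, a difference of -0.20 ± 0.25. Of the 3 coactivators, 1 was past 2-fold, against 3.63% of all genes, and it is Ppargc1a, for which the set was assembled. The other 2 were within the software error of 0 on each probe.

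The partner transcription factors were within 2-fold. Nrf1, whose product binds a palindrome in promoters of respiratory and mitochondrial maintenance genes, had 1245 in Gli2 shRNA and 1155 in control on its brightest probe, a difference of -0.17 ± 0.20. Its next probes gave 0.003 ± 0.20 and -0.09 ± 0.21, and the dimmest, annotated to another Nrf1 transcript, was not well above background on either array (3.58 and 3.09). Nrf1 thus showed no difference beyond the software error on any measured probe. Gabpa, the DNA-binding subunit of GABP, had 876 in Gli2 shRNA and 773 in control, a difference of -0.10 ± 0.20, whereas its dimmer probes gave 0.10 ± 0.21 and 0.09 ± 0.22. Its direction depended on the probe, and with median scaling the brightest probe also lay above 0. Esrra, the ERR-alpha gene and itself a described target of PGC-1alpha, had 7694 in Gli2 shRNA and 4705 in control. It was the highest of the 10 genes, at 0.43 ± 0.20, or 1.35-fold higher, and it has 1 probe. Its rank among the 14563 genes was 1445 counted from the highest difference.

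**Figure D2:**
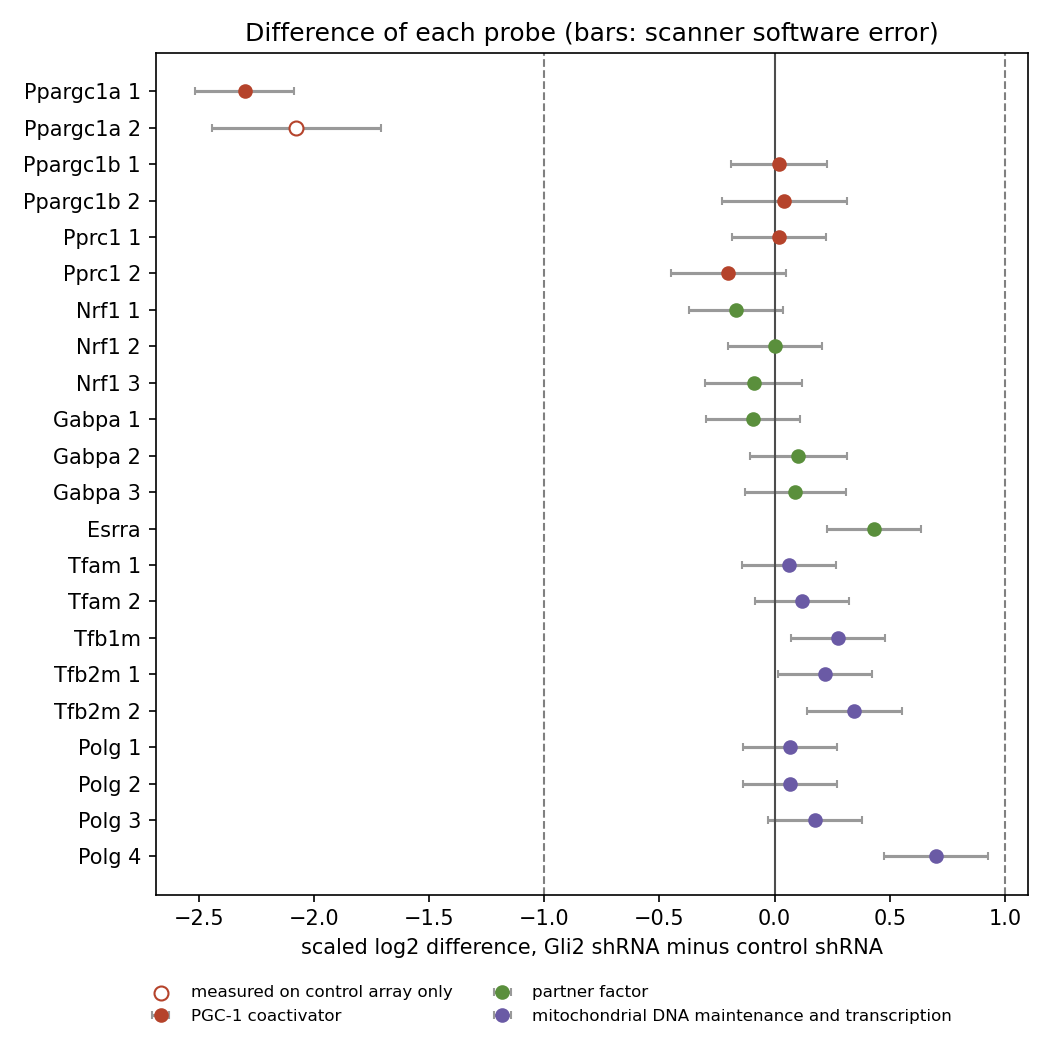
Scaled log2 difference, Gli2 shRNA minus control shRNA (horizontal axis), for the 22 probes measured on at least 1 array, with bars for the scanner software's error and dashed lines at 2-fold. Both Ppargc1a probes lie left of the lower line, at -2.30 and -2.08 (open circle, measured on the control array only), and the other 20 lie between -0.20 and 0.70.

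The genes of mitochondrial DNA maintenance and transcription lay slightly above 0. Tfam, which packages mitochondrial DNA and starts its transcription, had 1573 in Gli2 shRNA and 1242 in control, a difference of 0.06 ± 0.20, and its other probe gave 0.12 ± 0.20. Tfb1m, which encodes a methyltransferase of mitochondrial ribosomal RNA, had 2762 in Gli2 shRNA and 1885 in control, a difference of 0.27 ± 0.20 on its 1 probe. Tfb2m, which encodes the transcription factor that opens mitochondrial promoters, had 2471 in Gli2 shRNA and 1753 in control, a difference of 0.22 ± 0.20. Its dimmer probe gave 0.35 ± 0.21, so both Tfb2m probes were above 0 by more than the error, though far from 2-fold. With normexp they gave 0.196 and 0.200, within their errors of 0.204 and 0.207. Polg, the catalytic subunit of the polymerase that copies mitochondrial DNA, had 1039 in Gli2 shRNA and 819 in control, a difference of 0.07 ± 0.20. The next Polg probes gave 0.07 ± 0.20 and 0.18 ± 0.20, and the dimmest gave 0.70 ± 0.23 from signals of 104 in Gli2 shRNA and 52.8 in control. The range of 0.63 between the 4 Polg probes compares with a median range of 0.16 and a 95th percentile of 0.86 over the 5415 genes with several measured probes, and with normexp the dimmest probe gave 0.27.

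All 10 genes were measured on both arrays by their brightest probe. 1 of them, Ppargc1a, was past 2-fold, against 3.63% of all genes, and that gene is the one for which the set was assembled. The other 9 lay between -0.17 (Nrf1) and 0.43 (Esrra), 7 above 0 and 2 below, where 50.3% of all genes lay above 0. Over the alternative settings 6 to 8 of the 9 lay above 0. Of these 9, Esrra, Tfb1m and Tfb2m exceeded the software error, although Tfb2m did not with normexp. The median of the 10 genes was 0.04, beside 0.003 over all genes. Of 20 probes of the other genes measured on both arrays, none was past 2-fold, where 3.2% of all named probes were. Median scaling raised all genes alike by 0.14, and relative to the median of all genes Ppargc1a differed by -2.30 with either scaling.

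**Figure D3:**
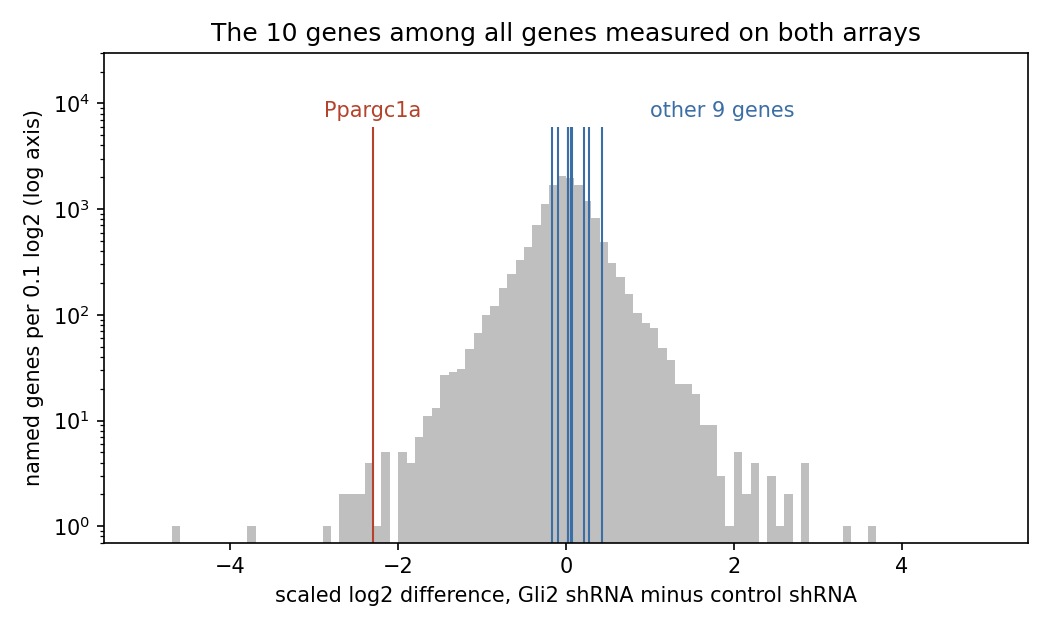
Distribution of the scaled log2 difference, Gli2 shRNA minus control shRNA (horizontal axis, bins of 0.1), over the 14563 named genes measured on both arrays (vertical axis, number of genes, log axis), with lines at the 10 genes. Ppargc1a (red) lies in the lower tail with 12 genes below it, and the other 9 (blue) lie between -0.17 and 0.43, with Esrra at the 90.1 percentile.

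By the rule of nearest control level and nearest difference, the genes most like Ppargc1a were Rgs8, Slc25a18, Sel1l3 and Sp8. With 2 arrays this likeness matches 2 values per gene and carries no further information. Rgs8, a regulator of G protein signalling, had 87.4 in Gli2 shRNA and 325 in control, a difference of -2.17 ± 0.21. Slc25a18, a mitochondrial glutamate carrier, had 109 in Gli2 shRNA and 349 in control, a difference of -1.95 ± 0.21. Sel1l3 (-2.13 ± 0.22) and the zinc finger transcription factor gene Sp8 (-1.82 ± 0.21) were further from it. All 4 were past 2-fold with normexp as well, between -1.55 and -1.41.

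Among 44 measured partners and upstream regulators of PGC-1 coactivators, 2 were past 2-fold, both lower, or 4.55% against 3.63% of all genes. Atf2, a CREB-related factor described to activate the Ppargc1a promoter downstream of p38 kinase, had 601 in Gli2 shRNA and 1174 in control, a difference of -1.24 ± 0.20, while its other probe gave -0.55. Foxo1, a forkhead factor that binds PGC-1alpha and is described to act on the Ppargc1a gene, had 727 in Gli2 shRNA and 1214 in control, a difference of -1.02 ± 0.20, and -1.01 on its other probe. Foxo1 was at the threshold, since it was within 2-fold with normexp (-0.93) and with median scaling (-0.88). Creb1, the factor that binds cAMP response elements, differed by -0.66 ± 0.20 on its brightest probe, with -0.79 to -0.04 over 4 probes. The histone acetyltransferase gene Crebbp differed by -0.45 ± 0.20 (0.08 on its other probe) and Mef2d, a muscle and neuronal transcription factor, by -0.44 ± 0.20.

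In the other direction within that list, Esrrb, a further oestrogen-related receptor, differed by 0.70 ± 0.21, Nrip1, a corepressor described to oppose PGC-1alpha, by 0.53 ± 0.20 and the CREB coactivator gene Crtc1 by 0.42 ± 0.20. Esrrg (0.02 ± 0.21), Ppara (0.03 ± 0.21), Pparg (0.05 ± 0.22) and Yy1 (-0.03 ± 0.20), transcription factors with which PGC-1alpha acts, were close to 0 on their brightest probes. The other probe gave 0.16 for Esrrg, 0.07 for Ppara and 0.23 for Yy1. Also close to 0 were Sirt1, the deacetylase of PGC-1alpha (0.08 ± 0.20), and Prkaa2, a catalytic subunit of AMP-activated kinase (-0.13 ± 0.24). The list median was -0.06, with 25 genes below 0 and 19 above, and with median scaling it was 0.08. Relative to the median of all genes it was -0.06 with both scalings. Camk4, a calcium-dependent kinase gene, was measured on the Gli2 shRNA array only. It was 2.10-fold higher after scaling, an uncertain size at a low signal (32.8 in Gli2 shRNA and 12.9 in control). With normexp it differed by 0.12. Prdm16 was measured on the control array only, and Thrb, Hnf4a and Perm1 on neither.

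The wider machinery of mitochondrial DNA had no member past 2-fold among 33 measured genes, against 3.63% of all genes, with 15 below 0 and 18 above, with a median of 0.005. The helicase gene Twnk (0.003 ± 0.21), the mitochondrial RNA polymerase gene Polrmt (-0.07 ± 0.20), the elongation factor gene Tefm (0.005 ± 0.20) and Polg2, the accessory subunit of the polymerase (-0.09 ± 0.20), were all close to 0. Ssbp1, which coats single-stranded mitochondrial DNA, differed by -0.19 ± 0.20. The highest differences were those of the p53-inducible ribonucleotide reductase subunit Rrm2b (0.59 ± 0.21), the deoxyguanosine kinase gene Dguok (0.53 ± 0.20) and the thymidine kinase gene Tk2 (0.32 ± 0.20). The lowest was that of Atad3a, at -0.23 ± 0.20, and Suclg1, a subunit of succinyl-CoA synthetase, was at -0.19 ± 0.20.

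None of the 88 genes of the mitochondrial ribosome and its translation factors was past 2-fold, against 3.63% of all genes. Their median was -0.06, with 60 below 0 and 28 above, where 49.7% of all genes lay below. With median scaling, which raised all genes alike, it was 0.07, with 25 below. Relative to the median of all genes it was -0.07 with both scalings and -0.01 with normexp. The subunit gene Mrpl52 was the lowest (10665 in Gli2 shRNA and 16124 in control, -0.87 ± 0.20) and Mrps6 the highest (30736 in Gli2 shRNA and 17523 in control, 0.53 ± 0.20). Mitochondrial protein import and folding likewise had no gene past 2-fold among 34, against 3.63% of all genes. It had 25 genes below 0 and 9 above, a median of -0.08 and a range from -0.46 (Tomm6, a subunit of the outer membrane translocase) to 0.28 (Timm8a1, an intermembrane space chaperone). With median scaling that median was 0.05, but relative to the median of all genes it was -0.08 with both scalings and -0.04 with normexp.

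Of 56 nuclear genes of the respiratory chain and ATP synthase, 1 was past 2-fold, or 1.79% against 3.63% of all genes. It was Sdhd, a membrane anchor subunit of succinate dehydrogenase, with 4452 in Gli2 shRNA and 14449 in control, a difference of -1.98 ± 0.20 on its 1 probe. 43 of the 56 lay below 0 and 13 above, where 49.7% of all genes lay below, and the median was -0.10. With median scaling 21 lay below 0 and the median was 0.04. Relative to the median of all genes it was -0.10 with both scalings, -0.06 with quantile normalization and -0.02 with normexp. Cycs, the cytochrome c gene whose promoter is a classical NRF1 target, had 42891 in Gli2 shRNA and 44173 in control, a difference of -0.32 ± 0.20. Cox6b1, a subunit of cytochrome c oxidase, was the next lowest after Sdhd (-0.81 ± 0.20), and Ndufa10 of complex I the highest (0.15 ± 0.20). The mitochondrially encoded genes had no named probe here and were not analysed.

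**Figure D4:**
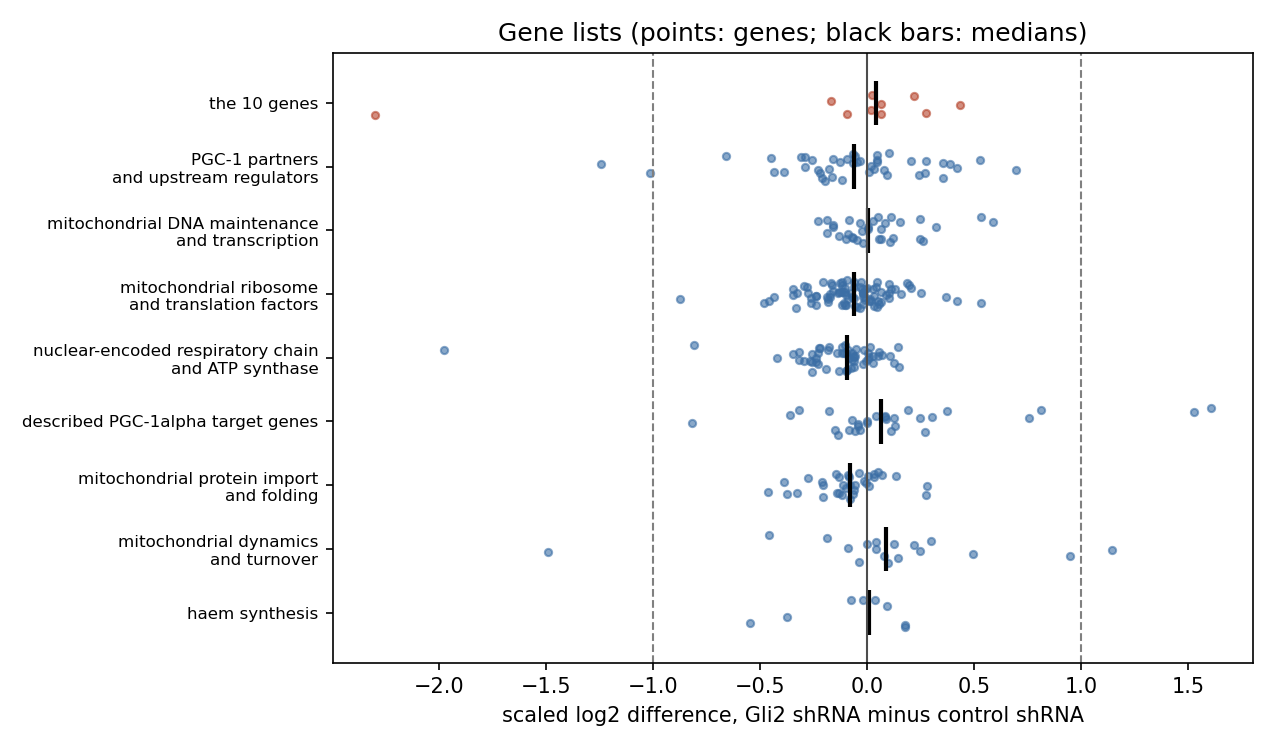
Scaled log2 difference, Gli2 shRNA minus control shRNA (horizontal axis), of the 10 genes (red) and of 8 lists of related genes (blue), 1 point per gene measured on both arrays, with black bars at the medians and dashed lines at 2-fold. The list medians lie between -0.10 and 0.09, and Ppargc1a, Sdhd and Fundc1 are the lowest points.

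Genes described as PGC-1alpha targets in brown fat, muscle, liver or neurons were mixed. Of 41 genes on the array, 30 were measured on both arrays, and 2 of these were past 2-fold, or 6.67% against 3.63% of all genes. Both were higher: Nefh, the heavy neurofilament gene, with 72.7 in Gli2 shRNA and 19.7 in control (1.61 ± 0.29), and Cplx1, a complexin of synaptic vesicle release, with 162 in Gli2 shRNA and 46.5 in control (1.53 ± 0.23). Both genes are described as depending on PGC-1alpha in mouse neurons. Their control signals were low, and with normexp they differed by 0.55 and 0.82, within 2-fold. The fatty acid oxidation gene Acadl (10292 in Gli2 shRNA and 4834 in control) differed by 0.81 ± 0.20, the fatty acid binding protein gene Fabp3 by 0.75 ± 0.21 and Acadvl, an acyl-CoA dehydrogenase gene, by 0.37 ± 0.20. On the lower side were Slc2a4, the insulin-regulated glucose transporter (-0.82 ± 0.28), Sod2, the mitochondrial superoxide dismutase (-0.36 ± 0.20), and Idh3a of the citric acid cycle (-0.32 ± 0.20). The uncoupling protein gene Ucp2 differed by -0.18 ± 0.20. The targets Pdk4, Cd36, Elovl3, Ckmt2, Pln and Syt2 were not well above background on either array. The list median was 0.06, with 13 below 0 and 17 above.

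Among 18 genes of mitochondrial dynamics and turnover, 2 were past 2-fold, or 11.1% against 3.63% of all genes. Fundc1, a receptor for the removal of mitochondria by autophagy in hypoxia, was lower, with 346 in Gli2 shRNA and 803 in control (-1.49 ± 0.20, 1 probe). Optn, an autophagy receptor, was higher on its brighter probe, with 87.0 in Gli2 shRNA and 32.5 in control (1.14 ± 0.24), but its other probe gave 0.14 and with normexp the brighter one gave 0.43. Bnip3, a hypoxia-induced receptor for mitochondrial removal, differed by 0.95 ± 0.20 (1.08, past 2-fold, with median scaling), Sqstm1, an autophagy receptor for ubiquitin-tagged cargo, by 0.50 ± 0.20 and Opa1, which fuses inner membranes, by 0.30 ± 0.20. The adaptor gene Mief1 differed by -0.46 ± 0.20 and the fission gene Dnm1l by -0.09 ± 0.20. The list median was 0.09.

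The position of Ppargc1a apart from the other 9 genes was seen under each of the 9 alternative settings, several of which could not alter its value. Its difference ranged from -2.30 to -1.60 and was past 2-fold throughout, with normexp giving the smallest size. The mean of probes and the absence of a filter could not change its value. Only 1 of its probes was measured on both arrays, and that probe is the brighter one. The stricter filter kept that probe. Median scaling and the authors' value table shift all genes alike. With outlier spots kept its value was -2.302, against -2.301 in the main setting. Normexp, quantile normalization and cyclic loess could change it other than by a shared shift, and they gave -1.60, -2.29 and -2.30. The other 9 genes stayed within 2-fold, from -0.19 at the lowest (Nrf1 with quantile normalization) to 0.57 at the highest (Esrra with median scaling).

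**Figure D5:**
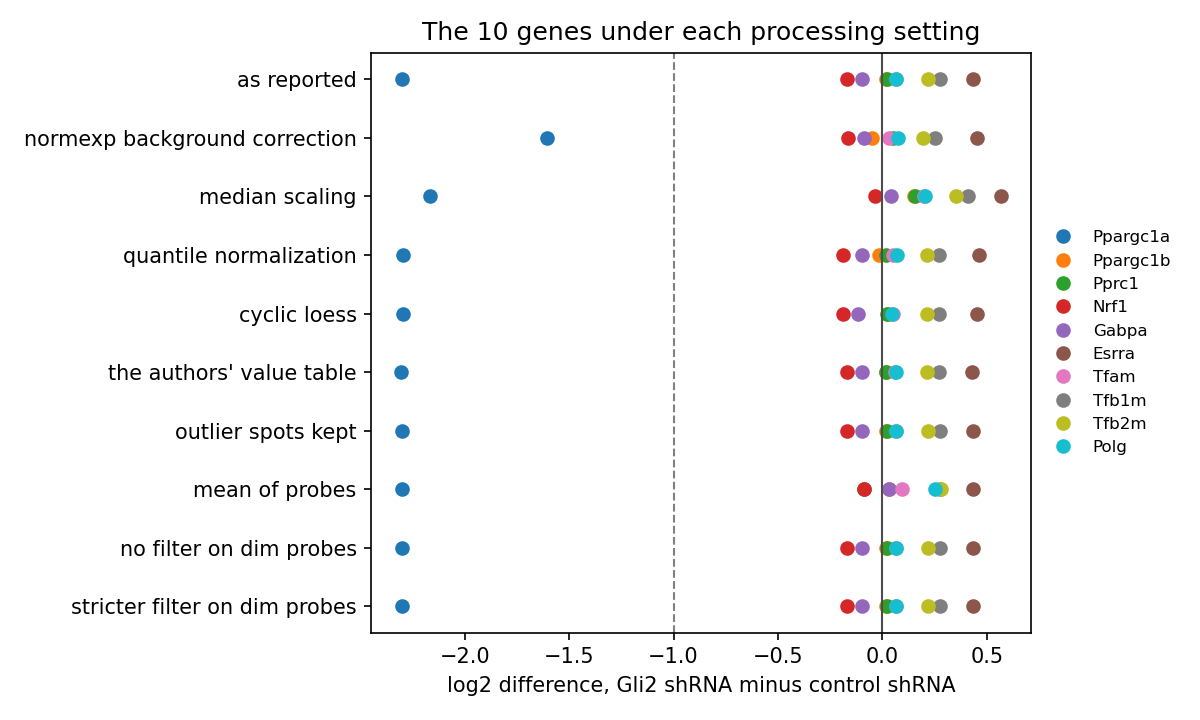
Log2 difference, Gli2 shRNA minus control shRNA (horizontal axis), of the 10 genes by brightest probe, or by the mean of probes where named, under the reported setting and 9 alternatives (rows), with a dashed line at 2-fold lower. Ppargc1a lies left of the line in every row, at -1.60 with normexp, and the other 9 genes lie between -0.19 and 0.57.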

How the data were processed

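Expression was measured in 2 samples of a mouse glioblastoma stem cell line, 1 with a Gli2 shRNA and 1 with a non-target control shRNA. Per the file headers, the authors read the 1-colour arrays with Agilent Feature Extraction 12.1.0.3 (protocol GE1_1200_Jun14, design 074809), and the deposited intensity values are background-subtracted processed signals with a modelled error and flags. The headers give the same slide and the same scan time for both groups. The authors' deposited value table holds log2 values, which equal the log2 processed signal minus 1 constant per array (8.64 in Gli2 shRNA, 8.36 in control), with column medians of -3.69 and -3.55. Its scale and centring were found from the values.

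Control spots and spots marked as outliers (120 in Gli2 shRNA, 126 in control) were left out, spots of a probe were averaged on the log2 scale, and 56595 probes remained. No spot was saturated. Probes well above background numbered 32334 in Gli2 shRNA and 33694 in control. RefSeq accessions named 34560 probes through the gene table of GRCm38.p6, and 22035 stayed unnamed. For a probe measured on 1 array, the dim array's own signal was used. If larger, the lowest signal well above background there took its place (15.2 in Gli2 shRNA, 12.8 in control). The folds given in this way, for Ppargc1a and Camk4, rest on the dim signal itself and are estimates, not bounds. The files hold median and no mean spot intensity, so normexp (offset 50, limma 3.58.1) used the median signal.

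The members, lists and rules were chosen with earlier results of these data known. Genes were named by rule: the 10 members with every probe, from each list those past 2-fold (up to 4 per direction) and the largest short of it (up to 3 per direction), and some fixed examples. Genes named for a signal on 1 array or on neither, and single cell type markers, were chosen after their values were seen. The lists of PGC-1alpha targets and regulators are written from general knowledge. Promoters are from RefSeq (GRCm38.p6).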

Additional observations from a re-analysis of the deposited data

How the results depend on the processing

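9 alternatives were tried: normexp background correction, median scaling, quantile normalization, cyclic loess, the authors' value table, outlier spots kept, the mean of probes, no filter on dim probes and a stricter filter (4 times the lowest signal well above background). No called value changed sign. Among members near 0, the sign turned for Ppargc1b (normexp and quantile, down to -0.05), Pprc1 (mean of probes, -0.09) and Gabpa (median scaling, 0.04, and the mean of probes). A value counts as kept when it moved by no more than the software error, and a count when it stayed within 1.5 times. Of 189 comparisons of the main results with an alternative, 172 were kept, among them the count of 1 gene past 2-fold among the 10. These include 72 list medians, for which the error of a single gene is a wide limit. With median scaling the medians of 4 lists changed sign, to 0.04 for the respiratory chain, 0.07 for the ribosome, 0.05 for import and 0.08 for partners and upstream regulators. That scaling raised all genes alike, and relative to the median of all genes these 4 medians were the same as in the main setting. Ppargc1a moved with normexp, to -1.60. The count of all genes past 2-fold moved with normexp (100 lower, 67 higher, of 14558). It also moved without the filter, which adds genes near background (2075 lower, 769 higher, of 23784). With the stricter filter, which tests fewer genes, it was 143 lower and 147 higher, of 12195. The share of all genes past 2-fold thus differs between settings, and the list counts below are to be read beside it. Partners and upstream regulators past 2-fold numbered 1 of 44 with normexp, median scaling and the mean of probes, and 6 of 49 without the filter. PGC-1alpha targets past 2-fold numbered 0 of 30 with normexp and 0 of 26 with the stricter filter. Without the filter they numbered 6 of 41 (3 lower and 3 higher). Dynamics and turnover genes past 2-fold numbered 1 of 18 with normexp and the mean of probes, and 1 of 17 with the stricter filter. Of 219 comparisons for single genes and probes, 216 were kept, and the exceptions were both Ppargc1a probes and the dimmest Polg probe, each with normexp. Many of these comparisons could not fail, so their number does not measure robustness. Apart from Ppargc1a, the brightest probe of each gene is counted both as a gene and as a probe. Leaving out the filter or making it stricter changed no brightest-probe value of the members. Median scaling and the authors' value table shift all genes alike, by less than the software error. The cause of these moves was not tested where it is not named. No paired analysis was possible because each group holds 1 array. The number of arrays limits precision, and signals near 15.2 in Gli2 shRNA and 12.8 in control have no reliable fold.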

Other observations

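Haem synthesis, which supplies the cofactor of the cytochromes and whose first enzyme gene Alas1 is a described PGC-1alpha target in mouse liver, had 8 of 9 genes measured on both arrays and none past 2-fold, against 3.63% of all genes, a share at which a list of this size may hold no call. Of the 8, 4 lay below 0 and 4 above, with a median of 0.007. Alad, the second enzyme of the pathway, was the lowest (6864 in Gli2 shRNA and 8286 in control, -0.55 ± 0.20), followed by Cpox (-0.38 ± 0.20), and Uros (0.18 ± 0.20) and Fech, which inserts iron (0.18 ± 0.20), were the highest. The erythroid gene Alas2 was not well above background on either array.

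Among markers of parvalbumin interneurons, Pvalb had 50.1 in Gli2 shRNA and 36.9 in control (0.16 ± 0.26), Gad1 had 488 and 303 in the same order (0.41 ± 0.20) and Lhx6 had 1294 and 1228 (-0.20 ± 0.20), while Gad2 and Syt2 were not well above background on either array.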
